A study of Mus musculus with 10 samples.

Results

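Cdk9, its cyclin partners Ccnt1 and Ccnt2, the inhibitor Hexim1, the 7SK RNA gene Rn7sk and the 7SK-binding protein genes Larp7 and Mepce were followed in RNA from cortical neurites. These 7 genes were picked by name out of 45195 gene IDs measured, and each name matched 1 ID. They were proposed with earlier results of these libraries known, in which Rn7sk had passed the test after injury in wild type and Cdk9 had passed it between genotypes after injury. Which values led to the other 5 genes is not recorded. For this reason the levels and differences of all 7 are given as descriptions. Their calls and p-values, where printed, show only how the earlier calls depend on the processing and support nothing.

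Cdk9 and a cyclin T, encoded by Ccnt1 or Ccnt2, form P-TEFb, the kinase that phosphorylates RNA polymerase II and the factors DSIF and NELF, and so releases paused polymerase into productive elongation. In the nucleus a share of P-TEFb is held inactive by 7SK, an RNA polymerase III transcript, together with the Hexim proteins. The protein Larp7 binds the 3′ end of 7SK and Mepce caps its 5′ end, and both keep the RNA stable. In neurons P-TEFb takes part in the fast induction of activity-regulated genes.

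The neurites came from E16.5 mouse embryonic cortical neurons, grown on membranes whose 3 µm pores let neurites through to the underside. Wild-type neurons were C57BL/6, and the knockout neurons carried floxed Cpeb1 alleles (Cpeb1 flox/flox) on that background. Cpeb1 encodes an RNA-binding protein of cytoplasmic polyadenylation. Neurons of both genotypes received AAV2 with Cre under the ubiquitous CAG promoter at plating, so Cre expression was shared by all groups. Wild type had 3 naive and 3 injured libraries, and the knockout had 2 of each. For injury, neurites were scraped off on day 7 and what had regrown was lysed 24 hours later, on day 8, when naive neurites were also taken. Injury and the younger age of the regrown neurites cannot be told apart. The labels do not say whether replicates were separate cultures, so the spread between them may be technical.

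The deposited values are on an FPKM scale (fragments per kilobase of transcript, scaled to depth), and "value" below means this unit. Depth, estimated from the steps between low values, ranged from 21.5 to 28.2 in units of 1e6 fragments. Fitted differences are on the log2(value + 1) scale with their SE, from 1 limma fit of all 10 libraries, and a gene is called at an adjusted p under 0.05 over the 15712 genes tested. All 7 genes passed the filter on low values (at least 1 in at least 2 libraries). Adding 1 understates the change of genes with low values, here Hexim1 and Mepce.

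Some libraries stood apart or did not follow their label. Cpeb1, the targeted gene, had a value of 5.97 in the library labelled knockout naive replicate 1, within the wild-type naive range of 5.86 to 7.16. In wild-type injured replicate 1 Cpeb1 was 1.65, within the range of 1.14 to 3.15 of the libraries labelled knockout injured. Which exons are deleted is not given in the sources used here, so reads from undeleted exons cannot be told apart from intact mRNA. Wild-type injured replicate 3 had the fewest genes at a value of 1 or more (12231) and the highest share of its summed values in 2 ribosomal RNA genes, 28.2%. Over all libraries that share ran from 11.1% to 28.2%, and it was 19.9% or more in each wild-type injured library and at most 16.9% in the others. Summed over 8 neuron markers, values were 3374 to 3735 in naive and 2130 to 2883 in injured wild-type libraries, and 3937 to 4317 in naive and 2967 to 3991 in injured knockout libraries. Summed over 8 astrocyte markers, they were 237 to 360 in naive wild-type and 466, 380 and 999 in injured wild-type libraries, replicate 3 being the highest, and 264 to 352 and 460 to 547 in the knockout. Summed over 7 radial glia markers, they were 2275 to 2806 and 2560 to 4789 in wild type and 3138 to 4223 and 3782 to 3826 in the knockout, naive first. Summed over 7 oligodendrocyte markers, they were 158 to 176 and 162 to 405 in wild type and 114 to 207 and 237 to 240 in the knockout. Sox9 of the astrocyte markers and Vim of the radial glia markers rose after injury in wild type, by 1.87 and 1.88 (limma, adjusted p = 0.0141 and 0.0435). The part of these shifts in the results below was not tested. Of the microglia markers Cx3cr1 and Tmem119 were at 0 throughout, as were Cdh5 of endothelium and Lum of fibroblasts. Other markers of these lists were detected. Sums over 8 microglia markers ran from 0 in wild-type naive to 18.4 in knockout naive libraries. Over 6 endothelial and mural markers they ran from 2.23 (wild-type naive) to 19.2 (knockout naive). Over 6 fibroblast and meningeal markers they ran from 0.15 (knockout injured) to 14.0 (wild-type naive). In such bulk samples fewer cells of a type and less RNA per cell cannot be told apart.

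Rn7sk was the member with the widest range, 83.2-fold between its lowest and highest library. Its gene lies at chr9:78175303-78175633 on the minus strand (mm10) and is a single exon of 331 nt without overlap with another gene. Both ends of the RNA are shown because the libraries were primed with oligo(dT), while 7SK is known to lack a poly(A) tail. They were read from the GENCODE M21 transcript, nucleotides 1 to 100 and 282 to 331, with GATC in capitals at the 5′ end and the closing T run in capitals at the 3′ end.
Rn7sk 5′ end: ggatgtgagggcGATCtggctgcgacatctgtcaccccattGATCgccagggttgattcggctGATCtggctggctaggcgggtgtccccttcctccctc
Rn7sk 3′ end: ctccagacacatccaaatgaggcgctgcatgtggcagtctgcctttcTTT
The gene ends in 3 T and holds no A run of 4 or more; its longest A run is 3. The letters GATC, part of the known Hexim-binding repeat of 7SK in the RNA form GAUC, occur at 13, 42 and 64 counted from the 5′ end. They were found by letters alone, and which of these sites belong to the repeat was not tested. Of 4745 annotated transcripts of similar length, 301 to 361 nt, 9.06% hold at least 3 GATC. GATC reads the same on both strands. Larp7 is known to bind the 3′ U run and Hexim1 the 5′ hairpin, while priming sites were not recorded in these data.

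In wild-type naive neurites Rn7sk had values of 23.4, 21.5 and 7.31, against 589, 263 and 481 in the injured libraries. In the knockout the naive values were 13.5 and 7.08, and the injured values were 57.4 and 280. Every injured library was above every naive library in both genotypes, and of the knockout injured libraries replicate 1 was far below replicate 2. The fitted difference was 4.67 ± 0.55 in wild type and 3.56 ± 0.68 in the knockout. As ratios of group means, Rn7sk was 25.5-fold higher after injury in wild type and 16.3-fold higher in the knockout. Between genotypes the difference was -0.61 ± 0.62 in naive and -1.72 ± 0.62 in injured neurites, the latter with overlap, since knockout injured replicate 2 was above wild-type injured replicate 2. The genotype difference after injury was -0.59 without knockout injured replicate 1 and -2.85 without replicate 2, and the naive one ran from -1.11 to -0.19 without 1 library at a time. Without wild-type injured replicate 1 the wild-type injury difference was 4.43. The injury difference in the knockout was 2.43 without knockout injured replicate 2, 4.69 without replicate 1 and 3.99 without knockout naive replicate 1.

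Because Rn7sk is close in length to the sequenced fragments, its level per length depends strongly on the assumed fragment length. In approximate fragments it had 18 to 52 per naive and 581 to 1196 per injured library in wild type, and 15 to 28 per naive library and 120 and 552 per injured library in the knockout. Scaled to depth, the group means of these fragments were 24.5-fold higher after injury in wild type and 13.5-fold higher in the knockout. The value of 1 fragment was read from transcripts of similar length within a fixed narrow window, and ran from 0.42 to 0.55 over the libraries. The ratios were therefore bound to stay near those of the values and are no separate check. The fitted fragment length ran from 252 to 303 nt over the libraries, and its part in the ratios was not tested. Transcripts of 5 other genes match Rn7sk at 95.7% to 100% over 233 to 241 nt. Each of these 5 genes was listed at 0 in every library. With matches this close a 0 does not show that no reads came from them, and how such reads were assigned was not tested.

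**Figure D1:**
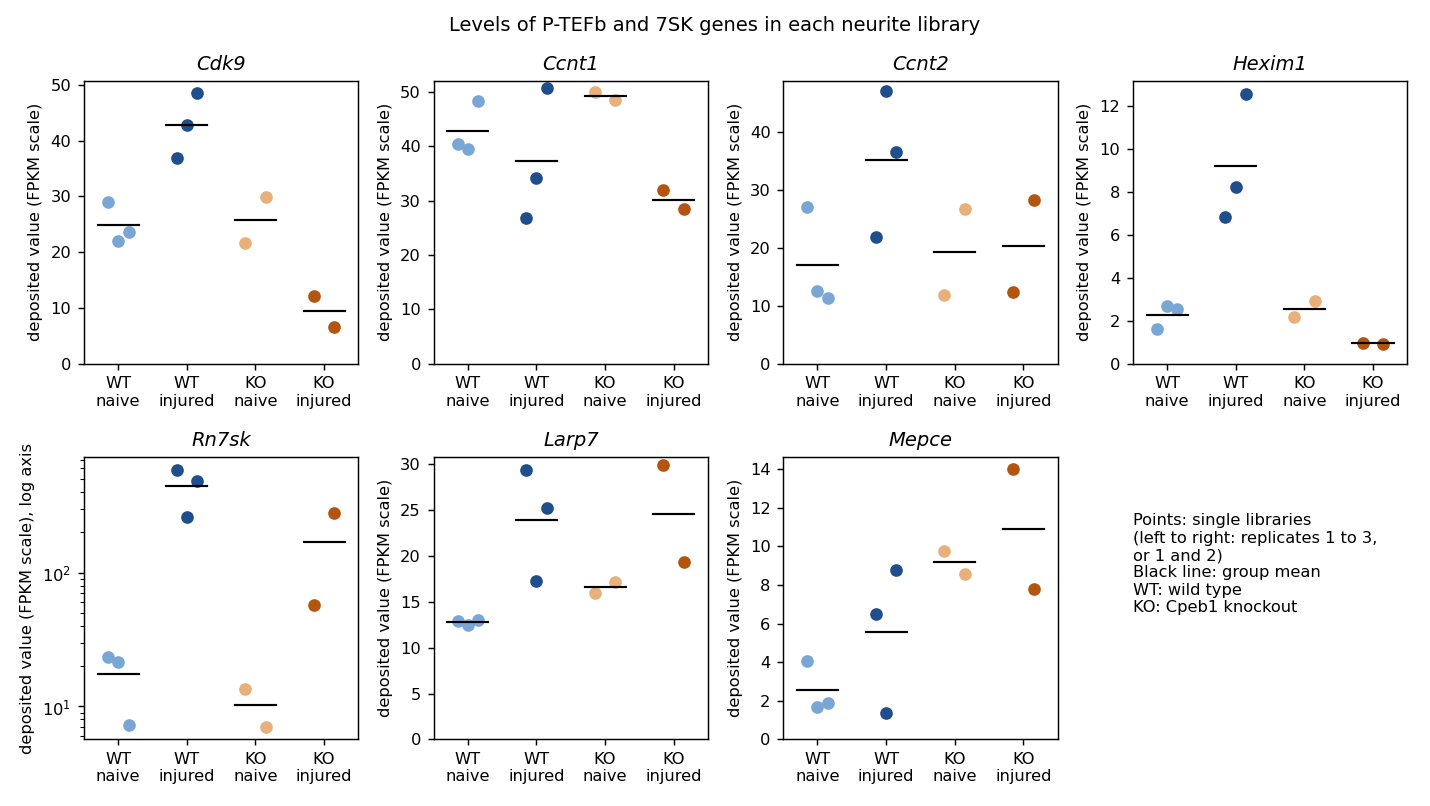
Values (FPKM scale) of the 7 genes in each of the 10 libraries by group, with points for libraries and black lines for group means; the Rn7sk axis is a log axis. Rn7sk is above every naive library in every injured library, while Cdk9 and Hexim1 are highest in wild-type injured and lowest in knockout injured libraries.

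No other short noncoding RNA of the lists looked at exceeded a value of 19.1. Of 22 other RNA polymerase III transcripts and small nuclear RNAs matched by name, 14 were at 0 in every library and 5 were tested. None of the 5 was called in any comparison by limma, where at most 0.948% of all genes tested were. Of the 5, only Rnu2-10 had an unadjusted p under 0.05, between genotypes after injury. Apart from Rn7s6 (291 nt) and Terc (423 nt), the genes at 0 are 62 to 166 nt long. This is shorter than the fitted fragment length of 252 to 303 nt, so their zeros do not show that these RNAs were absent. Rn7s1 and Rn7s2, 7SL RNA genes, had identical values in each library, so their reads cannot be assigned to one of them. In wild type Rn7s1 had 0.90, 1.64 and 2.35 in naive and 6.53, 1.91 and 5.63 in injured libraries, and in the knockout 3.03 and 1.21 against 1.47 and 14.1. For these genes naive and injured libraries overlapped in both genotypes. Summed over the 9 RNA polymerase III transcripts matched, values were 2.29 to 4.71 in naive and 3.82 to 30.3 in injured wild-type libraries. In the knockout these sums were 4.22 to 6.61 in naive and 2.94 to 28.3 in injured libraries, also with overlap. Rnu2-10, a U2 small nuclear RNA gene, had 6.91, 3.75 and 2.60 in naive and 8.65, 8.13 and 11.9 in injured wild-type libraries, higher without overlap. In the knockout it had 3.74 and 5.16 against 2.77 and 3.30, lower without overlap. Of all genes tested, 9.78% were higher without overlap in wild type, 22.1% lower without overlap in the knockout, and 1.37% both. Nothing is read from the arrangement of Rnu2-10. The injury difference of Rnu2-10 was 1.03 ± 0.49 in wild type (limma, adjusted p = 0.379) and -0.42 ± 0.61 in the knockout. Scarna13 and Rnu1a1, the other 2 tested of the RNA polymerase II small RNAs, were each at 0 in at least 1 library of each genotype, with differences of -1.54 and 0.43 in wild type. A further list held 12 RNAs chosen for retention in nuclei, which is not established for all of them, Gas5 and Tug1 being examples. Among these 12, Malat1 rose after injury in wild type, from 2633 ± 792 to 5988 ± 579 (SD, n = 3 each). Its difference was 1.23 ± 0.26 (limma, adjusted p = 0.0455). Malat1 was 2190 ± 555 in knockout naive and 1830 ± 840 in knockout injured neurites (SD, n = 2 each) and lower in the injured knockout than in the injured wild type by a difference of -1.79 ± 0.29 (limma, adjusted p = 0.0200). Of 20 alternative settings 15 lost the call after injury and 6 that between genotypes. The median difference of these 12 RNAs was -0.23 after injury in wild type and -0.46 between genotypes after injury, beside 0.0092 and -0.049 over all genes tested.

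Cdk9, the kinase (chr2:32705784-32713076, minus strand), had values of 28.9, 22.05 and 23.6 in wild-type naive neurites and 36.8, 42.9 and 48.6 after injury. In the knockout its values were 21.6 and 29.95 in naive and 12.2 and 6.63 in injured neurites. The wild-type injured libraries were all above, and the knockout injured libraries all below, every naive library. Group means were 24.8 ± 3.61 and 42.8 ± 5.90 (SD, n = 3 each) in wild type and 25.8 ± 5.88 and 9.43 ± 3.95 (SD, n = 2 each) in the knockout. The fitted injury difference was 0.76 ± 0.31 in wild type and -1.40 ± 0.38 in the knockout, and the genotype difference was 0.043 ± 0.34 in naive and -2.11 ± 0.34 in injured neurites. The injured wild-type mean was 4.54-fold the injured knockout mean. Without wild-type injured replicate 1 the genotype difference after injury was -2.22. It was no longer called without replicate 3 of that group (-2.02) or without knockout injured replicate 2 (-1.72). About 3.36% of the exon bases of Cdk9 are shared with the microRNA genes Mir2861 and Mir3960.

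For cyclin T1 the wild-type groups overlapped. Ccnt1 (chr15:98538689-98570923, minus strand) had values of 40.4, 39.5 and 48.3 in naive and 26.9, 34.1 and 50.8 in injured wild-type neurites. In the knockout it had 50.1 and 48.5 in naive and 31.9 and 28.4 in injured neurites, which did not overlap. The injury difference was -0.23 ± 0.27 in wild type and -0.69 ± 0.33 in the knockout, and the genotype difference was 0.21 ± 0.30 in naive and -0.25 ± 0.30 in injured neurites. Without 1 library at a time the injury difference in wild type ran from -0.48 (without injured replicate 3) to -0.030 (without injured replicate 1), and the genotype difference after injury from -0.45 (without wild-type injured replicate 1) to -0.0060 (without replicate 3). Of the exon bases of Ccnt1, 7.59% lie within 9330020H09Rik on the other strand, and the reads carry no strand.

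For cyclin T2 the groups overlapped in all 4 comparisons. Ccnt2 (chr1:127774164-127808061, plus strand) had 27.1, 12.5 and 11.4 in naive and 21.8, 47.0 and 36.6 in injured wild-type neurites. In the knockout it had 11.9 and 26.7 against 12.4 and 28.3. The injury difference was 1.04 ± 0.46 in wild type and 0.068 ± 0.56 in the knockout, the latter turning negative without knockout naive replicate 1 (-0.49) or knockout injured replicate 2 (-0.50). The genotype difference was 0.17 ± 0.51 in naive and -0.80 ± 0.51 in injured neurites, the latter -0.24 without knockout injured replicate 1 and -1.37 without replicate 2.

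Hexim1, which with 7SK inhibits P-TEFb, had the same order of groups as Cdk9 at a lower level. It is a single exon of 3495 nt (chr11:103116231-103119725, plus strand). Its values were 1.601, 2.68 and 2.56 in wild-type naive neurites and 6.80, 8.19 and 12.6 after injury. In the knockout they were 2.19 and 2.89 in naive and 0.98 and 0.91 in injured neurites. The wild-type injured libraries were above all others and both knockout injured libraries below all others. The injury difference was 1.61 ± 0.51 in wild type and -0.86 ± 0.62 in the knockout, and the genotype difference was 0.12 ± 0.57 in naive and -2.35 ± 0.57 in injured neurites. Without wild-type injured replicate 1 the injury difference in wild type was 1.78, and without replicate 3 it was 1.39.

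The level of Cdk9 per unit of Hexim1, both per length, was 18.1, 8.23 and 9.21 in naive and 5.41, 5.23 and 3.87 in injured wild-type libraries, which did not overlap. In the knockout the ratio was 9.89 and 10.4 in naive and 12.4 and 7.27 in injured libraries, which overlapped. By level among the 6 protein-coding members, Cdk9 ranked 1 or 2 in every library other than the knockout injured ones, where it ranked 5.

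Larp7, which binds the 3′ end of 7SK (chr3:127536714-127553349, minus strand), had values of 12.9, 12.5 and 13.0 in naive and 29.4, 17.3 and 25.2 in injured wild-type neurites, without overlap. In the knockout it had 16.0 and 17.2 in naive and 29.96 and 19.3 in injured neurites, also without overlap. The injury difference was 0.83 ± 0.32 in wild type and 0.51 ± 0.39 in the knockout, and the genotype difference was 0.35 ± 0.36 in naive and 0.038 ± 0.36 in injured neurites. The injury difference in the knockout was 0.21 without knockout injured replicate 1 and 0.82 without replicate 2. A gene with a 98.4% match over 764 nt, Gm12666, reached at most 1.79.

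Mepce (chr5:137781906-137787655, minus strand), the 7SK capping enzyme, had 4.06, 1.70 and 1.91 in naive and 6.52, 1.35 and 8.80 in injured wild-type neurites. In the knockout it had 9.78 and 8.56 against 14.0 and 7.79. Naive and injured overlapped in both genotypes, while the naive knockout libraries were above the naive wild-type libraries. The injury difference was 0.71 ± 0.60 in wild type and 0.18 ± 0.74 in the knockout, and the genotype difference was 1.57 ± 0.67 in naive and 1.04 ± 0.67 in injured neurites. The injury difference in wild type was 1.33 without wild-type injured replicate 2 and 0.30 without replicate 3, and the genotype difference after injury was 0.42 without wild-type injured replicate 2 and 0.66 without knockout injured replicate 1.

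**Figure D2:**
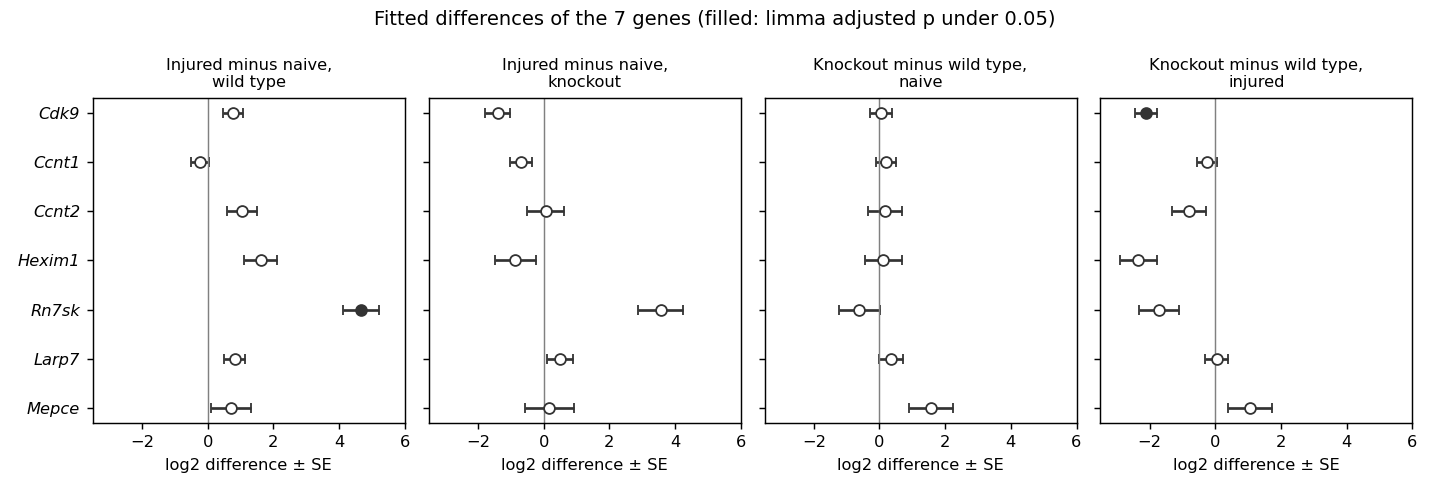
Fitted log2 differences of the 7 genes with SE as bars, for injury in each genotype and genotype in each state; filled points have a limma adjusted p under 0.05. Rn7sk is far right of 0 in both injury panels, and Cdk9 and Hexim1 are right of 0 for injury in wild type and left of 0 for injury in the knockout.

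Counted over the 7 genes, 1 was called after injury in wild type (Rn7sk), where 0.948% of all genes tested were called, and 4 were higher without overlap, where 9.78% of all genes were. After injury in the knockout none was called by limma, where 0.0573% of all genes were, and 2 had an unadjusted p under 0.05. There 2 were higher and 3 lower without overlap, against 13.5% and 22.1% of all genes. Between genotypes in naive neurites none was called by limma, where 0.146% were, and 1 had an unadjusted p under 0.05. Ccnt1, Larp7 and Mepce were higher there without overlap, against 14.1% of all genes. Between genotypes after injury 1 was called (Cdk9), where 0.261% were, and Cdk9 and Hexim1 were lower without overlap, against 12.2% of all genes. For the difference between the injury effects, none of the 7 genes was called by limma, as for 0% of all genes, and 2 had an unadjusted p under 0.05. Cdk9 and Hexim1 were higher in every injured wild-type and lower in every injured knockout library than in the naive libraries of the genotype, as were 1.37% of all genes. Since these contrasts were known when the genes were proposed, nothing is read from the counts. The genotype comparison after injury shares its libraries with both injury comparisons.

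The pathway around the members was described with 50 further genes of transcription elongation, of which 49 were tested, all but Ell3. After injury in wild type 1 of the 49 was called higher by limma and none lower, beside 0.948% of all genes tested called. There 6 of the 49 had an unadjusted p under 0.05, as did 2184 of the 15712 genes. The median difference was 0.11, beside 0.0092 over all genes tested. In the knockout none was called by limma, beside 0.0573% of all genes, and the median was 0.029 beside -0.087 over all genes. Of the 49, 2 had an unadjusted p under 0.05 there, as did 900 of the 15712 genes. Between genotypes none was called by limma, beside 0.146% of all genes in naive and 0.261% in injured neurites. In naive neurites 3 of the 49 had an unadjusted p under 0.05, as did 590 of the 15712 genes. In injured neurites 5 of the 49 did, as did 1642 of the 15712 genes.

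Among 10 partners of 7SK and P-TEFb, Srsf2, a splicing factor that is also known to bind 7SK and paused promoters, rose after injury in wild type. Its values were 196, 178 and 164 in naive and 350, 264 and 330 in injured wild-type libraries, without overlap. The difference was 0.80 ± 0.17 (limma, adjusted p = 0.0455), and 17 of 20 alternative settings lost the call, with adjusted p from 0.0231 to 0.284. In the knockout Srsf2 had 155 and 169 in naive and 190 and 221 in injured libraries, a difference of 0.34 ± 0.21. Of its exon bases 25.3% are shared with Mettl23 and Mfsd11 on the other strand. Trim28, a corepressor that also binds 7SK complexes, had a difference of 0.50 in wild type. Hnrnpa2b1, an RNA-binding protein that takes up 7SK released from P-TEFb, had the highest mean value of the partners, 279, and differences of 0.36 in wild type and -0.0017 in the knockout.

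Among 10 genes of the super elongation complex, the scaffold Aff4 had the highest mean value, 62.1, and injury differences of -0.067 in wild type and -0.56 in the knockout. The related scaffold Aff1 had values of 0.77, 0.018 and 0 in naive and 2.39, 6.44 and 4.36 in injured wild-type libraries, against 0.58 and 0.83 in naive and 1.09 and 0.64 in injured knockout libraries. Its difference in wild type was 2.08 ± 0.53 (limma, adjusted p = 0.0945), and it rests on low values. The wild-type injured libraries were above all others. After injury in wild type 9.78% of all genes tested were higher without overlap. How many of all genes have these libraries above all others was not counted.

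Of the 6 pausing factor genes, Supt4a of DSIF had the highest mean value, 92.3, with injury differences of -0.33 in wild type and 0.10 in the knockout. Nelfcd, a NELF subunit singled out after its values were seen, had 38.5, 34.3 and 34.7 in naive and 25.7, 31.3 and 47.8 in injured wild-type neurites. In the knockout it had 21.8 and 33.6 against 52.8 and 71.9. The difference in the knockout was 1.16 ± 0.35 (limma, adjusted p = 0.607). Both knockout injured libraries were above all others. The same held for Nelfb, also singled out, with 56.1 and 61.1 in these libraries and at most 50.3 elsewhere. Of the 6 genes 5 had an injury difference above 0 in the knockout, beside 42.0% of all genes tested, and Nelfa was at -0.57. After injury in the knockout 13.5% of all genes tested were higher without overlap. How many of all genes have both knockout injured libraries above all others was not counted, so nothing is read from these orders.

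The other subgroups had no called gene by limma in any comparison; after injury in wild type 2 phosphatase genes, Ssu72 higher and Rpap2 lower, and no other gene of these had an unadjusted p under 0.05. The 13 genes of the PAF complex and other elongation factors had a median of -0.048, and Elof1, an elongation factor with the highest mean value of these, 86.1, had a difference of -0.56. The 6 other kinases and cyclins of the polymerase tail had a median of 0.17, with Ccnh, the cyclin of TFIIH, at -0.25. The 4 phosphatases had a median of 0.30, with Ssu72 at 0.48 and Rpap2 at -2.20 ± 0.88 (limma, adjusted p = 0.293), the largest injury difference of the 49 genes in wild type. Rpap2 had 24.3, 5.42 and 10.3 in naive and 0.020, 9.90 and 0.72 in injured wild-type libraries, with overlap, and was singled out after its values were seen.

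**Figure D3:**
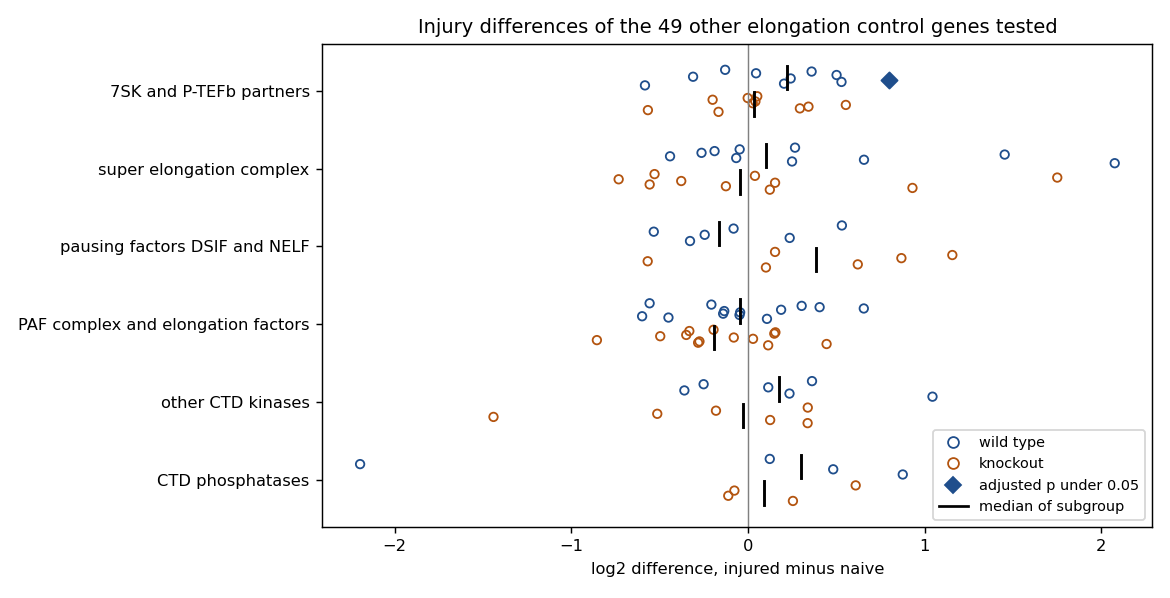
Log2 injury differences of the 49 other elongation control genes tested, by subgroup, in wild type (blue) and knockout (orange), with black lines for subgroup medians. The only filled point is Srsf2 at 0.80 in wild type, and the subgroup medians in wild type lie between -0.16 and 0.30.

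By the largest Pearson correlation of log2(value + 1) over the 10 libraries among 7367 genes of at least median level, the 5 genes most like Rn7sk were Gadd45b (0.986), Nr4a2 (0.983), Gadd45g (0.981), Ass1 (0.978) and Ier2 (0.976). These are descriptions over libraries that share groups. The genes were picked by their likeness to Rn7sk over the same libraries. Orders of libraries that they share with Rn7sk therefore follow largely from this choice and are no separate result. In all 5, each injured library was above every naive library, knockout injured replicate 1 was the lowest injured library, as for Rn7sk, and wild-type injured replicate 3 was the highest library. Rn7sk was instead highest in wild-type injured replicate 1. Of 26 immediate early genes, 19 rose after injury in wild type by limma and 3 in the knockout. Of all genes tested, 0.948% were called in wild type, with 3 libraries a group, and 0.0573% in the knockout, with 2. The difference between the counts 19 and 3 was not tested.

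The 5 genes most like Cdk9 were Ppfia1 (0.946), Zmym4 (0.944), Plxna4 (0.937), Dubr (0.930) and Maz (0.921). All 5 were lowest in knockout injured replicate 2, as was Cdk9, which again follows largely from how they were picked. Ppfia1 had 12.3, 11.2 and 16.0 in wild-type injured and 4.12 and 1.41 in knockout injured libraries, and Plxna4, a semaphorin receptor subunit, had 8.45, 8.67 and 8.39 against 4.98 and 4.53.

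**Figure D4:**
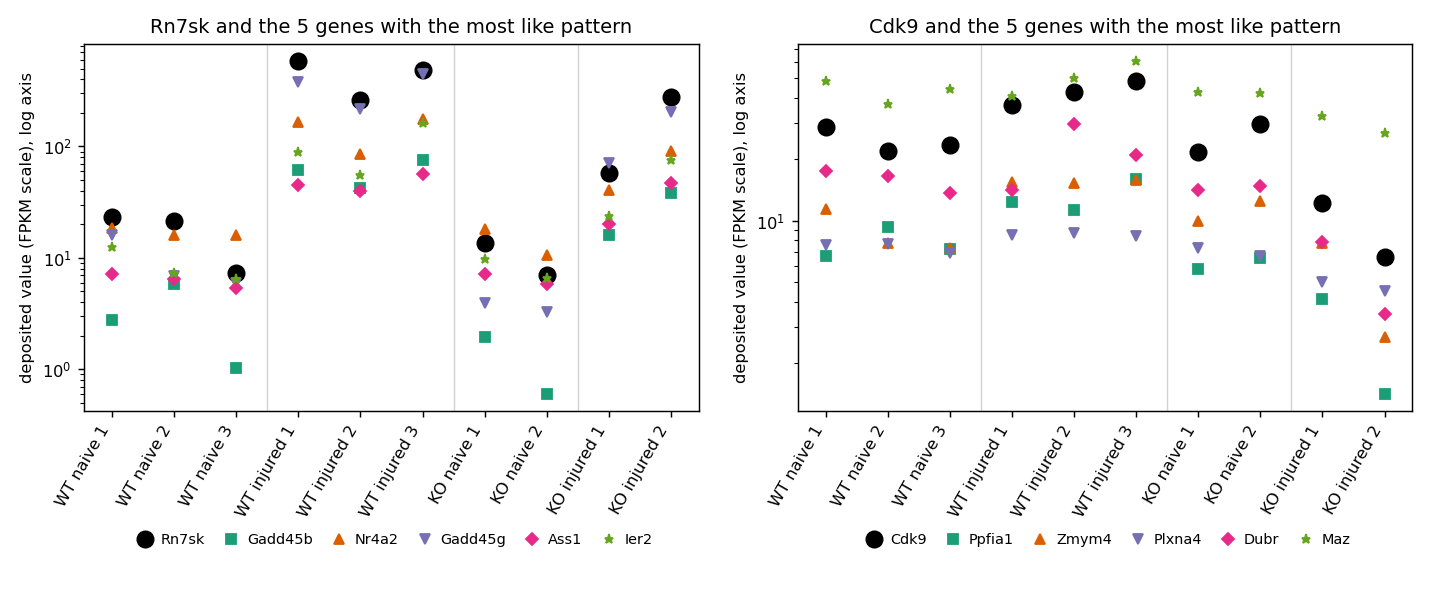
Values (FPKM scale, log axis) of Rn7sk and of Cdk9 in each of the 10 libraries, each with the 5 genes whose pattern over the libraries was most like it. The genes beside Rn7sk are higher in all injured libraries, and those beside Cdk9 are lowest in knockout injured replicate 2.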

How the data were processed

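Neurite RNA was primed with oligo(dT) (Smart-seq2, 14 cycles of PCR), per the labels' protocols, and tagmented without strand information. The submitters' processing notes name STAR 2.4.2a, RSEM 1.2.21 and mm10. The authors deposited FPKM values; that each library was divided by a further factor was read from the values, at least 99.97% of which lay within 0.001 of a multiple of 0.01 times the factor. Names came from GENCODE M21, matching 44548 of 45195 gene IDs. The test was limma 3.58.1 (R 4.3.3) with eBayes and a mean-variance trend on log2(value + 1), 4 group means in 1 fit of 10 libraries, over 15712 genes that reached a value of 1 in 2 or more libraries, with Benjamini-Hochberg adjustment within a comparison at 0.05. The fit was also run on simulated data, and no result of that run is used here. Alternatives changed the pseudocount, filter, trend, scaling, block, libraries fitted or left out 1 library. Copies were searched with blastn 2.17.0. Depth was estimated from the values; no counts were used, so no counting intervals are given.

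The members and lists were chosen with earlier results of these data known. All members are named; of other lists, called genes (up to 6), otherwise the 3 with the smallest p for injury in wild type, and the gene with the highest mean value in each elongation subgroup. As exceptions, only counts are given of the immediate early genes, and sums with called genes or genes at 0 of the marker lists.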

Additional observations from a re-analysis of the deposited data

Results flagged for a closer look

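For Cdk9 every wild-type injured library was above every wild-type naive library and every knockout injured library below every knockout naive library. Subtracting the wild-type injury difference from that of the knockout gave -2.16 ± 0.49 on the log2 scale, which was not called over all genes (limma, adjusted p = 0.595). For Hexim1 the libraries fell the same way, with a difference between the injury effects of -2.47 ± 0.81 that was not called either (limma, adjusted p = 0.791). This arrangement of libraries was found in 1.37% of the 15712 genes tested, and both genes were proposed with these contrasts known. No gene of all tested was called for this difference by limma, and 979 had an unadjusted p under 0.05.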

How the results depend on the processing

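Of the 35 differences of the 7 genes, 28 kept their direction under every alternative run. The call of Rn7sk after injury in wild type was lost with no filter on low values, at the same difference of 4.67 (adjusted p = 0.0611, 0 members called); without 1 library at a time it ranged from 4.17 to 5.01 and passed each time. After injury in the knockout Rn7sk ranged from 2.43 to 4.69 and was called, as the only member (0 to 1 members over these settings), without knockout injured replicate 1. Cdk9 between genotypes after injury lost its call with no mean-variance trend (-2.11, adjusted p = 0.0593), where Hexim1 was called instead (adjusted p = 0.0330), and with only the groups compared (-2.11, adjusted p = 0.294, 0 members called). Leaving out 1 library it ranged from -2.51 to -1.72, and it lost its call, leaving 0 to 1 members called, in the absence of wild-type injured replicate 3 (adjusted p = 0.0505) or of knockout injured replicate 2 (adjusted p = 0.194). The cause was not tested.

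With the replicate number as a block, Cdk9 after injury was -2.08 (adjusted p = 0.0815), so 0 members were called; Rn7sk in wild type stayed at 4.67. Same-numbered libraries had correlations of their deviations from -0.048 to 0.041, so the numbers were not taken as pairs.

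Between genotypes in naive neurites, Cdk9 turned to -0.018 when quantile normalized, -0.032 under median-ratio scaling and -0.14 under a shared protein-coding sum, and ranged from -0.18 to 0.27 without 1 library. With that sum Ccnt2 turned to -0.0027 (-0.38 to 0.73 without 1 library) and Hexim1 to -0.0086 (-0.038 to 0.26). That scaling moved the median of all genes by -0.11 for injury in wild type, -0.15 for genotype in naive neurites and 0.22 for the difference between injury effects; quantile and median-ratio scaling moved the last by 0.14 and 0.13. Leaving out 1 library turned Ccnt2 (-0.50 to 0.63) and Mepce (-0.21 to 0.56) after injury in the knockout, Larp7 between genotypes after injury (-0.27 to 0.34), and the difference between injury effects of Rn7sk (-2.24 to 0.025). The elongation genes called after injury in wild type fell to 0 with a pseudocount of 0.1, no filter, no trend, quantile, median-ratio or protein-coding scaling, the replicate block and only the groups compared, and were 0 to 1 without 1 library. The difference between injury effects needs all groups and was not run with only the groups compared. Over all genes, the 149 calls after injury in wild type ranged from 17 to 311 over the alternatives, the 9 in the knockout from 0 to 33, the 23 between genotypes in naive neurites from 15 to 52, the 41 after injury from 15 to 57, and the 0 for the difference between injury effects from 0 to 13. Without counts, the depth behind single low values is approximate. Where leaving out a knockout library left 1 in its group, that library was assumed to vary like the other groups.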
